A study of Mus musculus with 3 samples.

Results

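The genes described here code for secreted signals of inflammation and for proteins tied to them: the chemokines Ccl2, Ccl7, Cxcl1, Cxcl5 and Cxcl12, the cytokines Il6, Lif and Csf1, the prostaglandin synthase Ptgs2 and the receptor Tlr2. They were taken by symbol from a table of read counts per gene, where all 10 were found among 20162 genes, each on 1 row. Polyadenylated RNA had been sequenced from 3 populations of C2C12, mouse myoblasts of an immortal line whose cells fuse to myotubes in low serum. All 3 had received a lentiviral short hairpin RNA (shRNA), were kept under puromycin and spent 7 days in differentiation medium with 2% horse serum. The ShSC population carried a control shRNA, while ShA and ShB carried different shRNAs against the gene of the transcription factor Tead4. Each population gave 1 library, and no repeat culture of any shRNA is described in the labels. The samples are drug-selected populations of 1 line, not clones.

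Chemokines are small secreted proteins that guide the movement of leukocytes and of muscle precursor cells. Ccl2 and Ccl7 belong to the CC class and draw monocytes, Cxcl1 and Cxcl5 to the CXC class that draws neutrophils, and Cxcl12 is a more constantly made CXC chemokine that acts on Cxcr4. Il6 and Lif signal through the shared receptor chain gp130, coded by Il6st, to JAK kinases and the factor Stat3. Csf1 supports macrophages, Ptgs2 (cyclooxygenase of the inducible kind) starts prostaglandin synthesis, and Tlr2 senses bacterial lipoproteins. In muscle, such signals are known as products of myoblasts and regenerating fibres, and many of these genes are textbook targets of the transcription factor NF-kB.

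The libraries held 15594305 to 19918954 counted reads. Tead4 itself had 1256 reads in ShSC, 397 in ShA and 170 in ShB, lower in both libraries that carried its shRNAs. All 8 skeletal muscle markers checked were expressed. Their summed level in CPM (the count relative to the scaled library size) was 22527 in ShSC, 13649 in ShA and 16630 in ShB. Of the 8, 4 (Myh3, Tnnc2, Myog and Ckm) fell, where 4.48% of all tested genes were called lower. Markers of macrophages and leukocytes summed to 11.5, 8.30 and 10.0 CPM in ShSC, ShA and ShB. Cd53 alone gave 8.72, 3.93 and 5.27 CPM of this, Fcgr3 had 1, 0 and 0 reads, and Csf1r, the receptor of Csf1, had 3, 9 and 9. Only 4 of the 7 macrophage and leukocyte markers present could be tested, with log2 fold changes from -0.96 to 2.09 (2 positive and 2 negative). Among these 4, edgeR called 0 (9.82% of all tested genes). At an unadjusted p under 0.05 there was 1 (21.7%), and DESeq2 and limma-voom called 0. Endothelial markers summed to 1.49 to 2.35 CPM and adipocyte markers to at most 0.199 CPM. Fibroblast markers summed to 2062 CPM in ShSC, 3147 in ShA and 1911 in ShB, and 1 of 5 tested, Dcn, fell (4.48% of all tested genes). Most of that sum was Col3a1, with 1582, 2838 and 1646 CPM, higher in ShA than in either other library. The part of these marker levels in the results was not tested. In bulk RNA, fewer cells of a kind and less RNA per cell cannot be told apart.

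With the Tead4 shRNAs, Ptgs2, Tlr2 and Cxcl5 fell, and no gene of the group rose. Ptgs2 went down furthest, 6.14-fold in ShA and 7.38-fold in ShB. Lif, Csf1 and Cxcl12 had higher levels in both Tead4 shRNA libraries, and Ccl2, Ccl7 and Cxcl1 lower ones, without passing the test. Il6 was close to the detection limit. The 10 genes therefore did not all lie on one side of the control library.

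All 10 genes had enough reads to be tested. The test was edgeR's quasi-likelihood test of the 2 Tead4 shRNA libraries against the control library, with p-values adjusted over all 14478 tested genes and a threshold of 0.05. It called 3 of 10 genes (9.82% of all tested genes were called), all of them lower, where 4.48% of all tested genes were called lower, and 0 of 10 higher, where 5.34% of all tested genes were. At an unadjusted p under 0.05 edgeR gave 5 lower and 3 higher (21.7% of all tested genes in either direction). DESeq2 called 2 lower and 0 higher (371 lower and 447 higher over all genes). With limma-voom 3 were lower and 1 higher (679 lower and 689 higher over all genes). The median log2 fold change of the 10 genes was -0.61, beside 0.02 for all tested genes. The test leaves 1 residual degree of freedom, that between ShA and ShB, because the control group has 1 library. Its p-values take their spread from the differences between ShA and ShB, shared across genes (20.9 prior degrees of freedom). Those libraries carried different shRNAs, and their differences may be technical. No spread of the control library, and none between repeat cultures, is covered.

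Each Tead4 shRNA library was also compared with ShSC alone, by the ratio of scaled counts and its exact 95% interval, which covers counting error only. Both intervals lay below no change for 6 of the 10 genes (21.4% of tested genes) and above it for 3 (21.7% of tested genes). Both ratios were at least 2-fold lower for 4 genes, Ptgs2, Tlr2, Cxcl5 and Cxcl1 (3.1% of tested genes), and at least 2-fold higher for 0 (4.63% of tested genes). Cxcl1 stood at the edge of this count. Its ShA log2 ratio was -1.003 here, and -0.959 with upper-quartile and -0.957 with total-count scaling, both short of 2-fold. The ratios share the control library, so a deviation of that 1 library would move both.

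**Figure D1:**
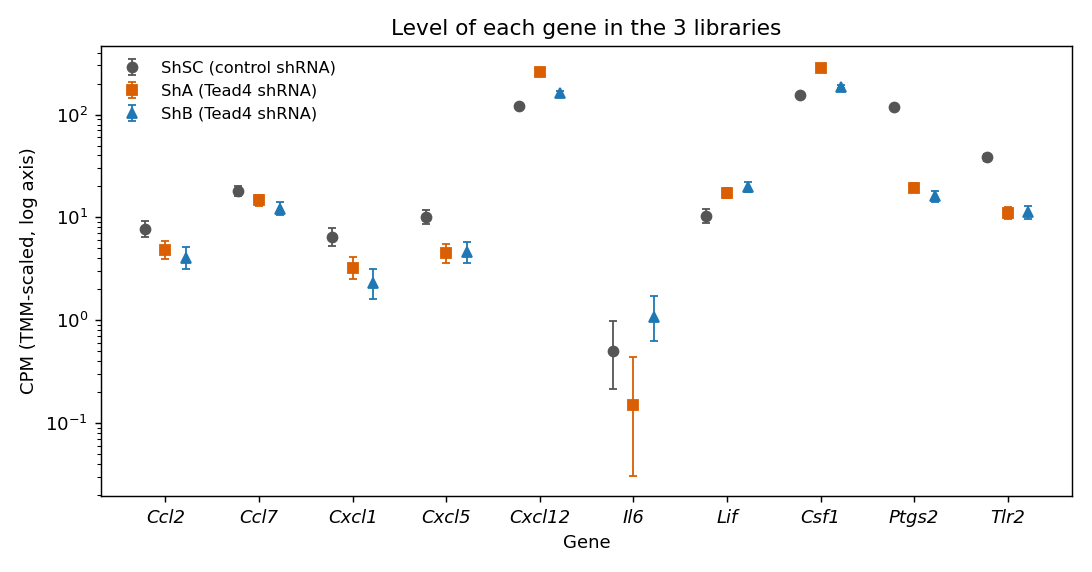
Level of each gene in CPM on a log axis, 1 point per library (circle ShSC, square ShA, triangle ShB) with exact 95% Poisson intervals of the read count. Ptgs2 and Tlr2 stand far lower in both Tead4 shRNA libraries, Lif, Csf1 and Cxcl12 stand higher, and the intervals of Il6, with 3 to 17 reads, are wide.

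Ptgs2 (ENSMUSG00000032487) had 1911 reads in ShSC, 390 in ShA and 254 in ShB, or 119, 19.4 and 16.1 CPM. Both Tead4 shRNA libraries were far below the control library and close to each other. The ShA level was 6.14-fold lower and the ShB level 7.38-fold lower than in ShSC, with log2 ratios of -2.62 (-2.78 to -2.46) and -2.88 (-3.08 to -2.69). On the log2 scale the edgeR fit gave -2.74 (SE 0.22, adjusted p = 1.09e-08). It was called with each of the 9 alternative scalings, filters and tools.

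The promoter of Ptgs2 is shown because this gene changed furthest in the group. The window holds 250 bases before and 50 bases after the start in RefSeq, build GRCm38.p6, chr1:150099781-150100080, plus strand. This build is not the mm9 build of the deposited counts. Capitals mark matches, on either strand, to motifs of factors known to act on inflammatory promoters: GGAATG (TEAD factors), TGANTCA (AP-1), TGACGT (ATF and CREB factors), TTGCNNAA (C/EBP factors), CACGTG (E-box) and the kB consensus of NF-kB.
Ptgs2: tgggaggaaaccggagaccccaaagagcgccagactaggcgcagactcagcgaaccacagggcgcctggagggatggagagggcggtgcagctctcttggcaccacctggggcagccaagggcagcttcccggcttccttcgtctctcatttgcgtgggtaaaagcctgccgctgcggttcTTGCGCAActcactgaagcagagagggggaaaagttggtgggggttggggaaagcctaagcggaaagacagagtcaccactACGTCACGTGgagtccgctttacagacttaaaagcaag
It held the C/EBP letters TTGCGCAA at -69 from the start, and downstream of the start the ATF and CREB letters ACGTCA, which run into the E-box CACGTG. Among 32851 RefSeq promoter windows of the same length, 10.8% held the C/EBP letters, 7.51% the ATF and CREB letters and 7.15% the E-box. The TEAD letters (14.7% of windows), the AP-1 letters (7.81%) and the kB consensus (8.46%) were not found in this window. Such matches describe letters and are not evidence of binding, and an absent match says nothing of sites elsewhere.

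Of 17 genes of prostaglandin synthesis and removal found in the table, 14 were tested and 1 rose while 0 fell (list median -0.02 on the log2 scale, with 5.34% of all tested genes called higher and 4.48% lower). At an unadjusted p under 0.05 edgeR gave 3 higher and 2 lower (21.7% of all tested genes in either direction), and DESeq2 and limma-voom called 0. Ptgs1, the constant form of the enzyme, was named after its value was seen. It had 2077, 2459 and 1707 reads in ShSC, ShA and ShB and was not called (log2 fold change -0.17, SE 0.22, edgeR adjusted p = 0.751). The gene that rose was Hpgd, which codes for the enzyme that inactivates prostaglandins. It had 1 read in ShSC against 37 in ShA and 18 in ShB. The log2 ratios were 4.88 (2.32 to 10.2) and 4.20 (1.53 to 9.58), with wide intervals because of the single control read, and the call (adjusted p = 0.0256, edgeR) ended with DESeq2 and limma-voom.

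Of 4 tested prostaglandin receptors, 2 rose, where 5.34% of all tested genes were called higher. Ptger4, a receptor of prostaglandin E, had 94 reads in ShSC, 290 in ShA and 183 in ShB (log2 fold change 1.15, SE 0.33, edgeR adjusted p = 0.0252). Ptgfr, the receptor of prostaglandin F, had 40, 141 and 112 reads (log2 fold change 1.50, SE 0.41, edgeR adjusted p = 0.0206). DESeq2 ended both calls. Ptger1, with 54.2 CPM in ShSC, 75.2 in ShA and 53.9 in ShB (log2 fold change 0.25, SE 0.24, edgeR adjusted p = 0.611), and Ptgir, with 2.74, 4.23 and 5.14 CPM (0.77, SE 0.44, edgeR adjusted p = 0.334), were not called.

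Tlr2 (ENSMUSG00000027995) had 617 reads in ShSC, 223 in ShA and 177 in ShB, or 38.4, 11.1 and 11.2 CPM. The Tead4 shRNA libraries were alike (ShB to ShA log2 ratio 0.02, interval -0.27 to 0.31) and both clearly below the control library. Their log2 ratios to ShSC were -1.79 (-2.02 to -1.57) and -1.77 (-2.02 to -1.53), or 3.47-fold and 3.42-fold lower. The log2 fold change was -1.78 (SE 0.23, edgeR adjusted p = 2.08e-05), called with each of the 9 alternatives.

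The RefSeq promoter window of Tlr2 (GRCm38.p6, chr3:83841559-83841858, minus strand) is shown as that of the second gene called with every alternative, with the same motifs in capitals.
Tlr2: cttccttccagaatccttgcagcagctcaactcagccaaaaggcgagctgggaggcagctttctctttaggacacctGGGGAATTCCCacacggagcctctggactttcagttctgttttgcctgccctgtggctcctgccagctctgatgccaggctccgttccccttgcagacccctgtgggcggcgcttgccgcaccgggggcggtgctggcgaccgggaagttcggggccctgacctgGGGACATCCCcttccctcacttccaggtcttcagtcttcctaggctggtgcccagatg
It held the kB consensus as the overlapping letters GGGGAATTCC and GGGAATTCCC at -173 and -172, and again as GGGACATCCC at -8. The other motifs were not found in it.

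Other Toll-like receptors did not follow Tlr2. In the list of Toll-like receptors and adaptors 20 of the 26 genes in the table were tested. Of these, 1 rose (5.34% of all tested genes) and 2 fell (4.48%), with a list median of -0.08. Tlr3, which senses double-stranded RNA inside cells, had 31 reads in ShSC, 124 in ShA and 111 in ShB and rose (log2 fold change 1.77, SE 0.44, edgeR adjusted p = 0.0103; the call ended with DESeq2). Cd36, a scavenger receptor that works with Tlr2 on lipid ligands, fell by 0.999 on the log2 scale (SE 0.24, edgeR adjusted p = 0.00965), with 120 CPM in ShSC, 46.1 in ShA and 73.7 in ShB. Tab2, listed under its older symbol Map3k7ip2, links Toll-like receptor signals to the kinase Tak1 and fell by 0.75 (SE 0.22, edgeR adjusted p = 0.0310; the call ended with upper-quartile scaling). Tlr4, the sensor of endotoxin, named after its value was seen, had 92.9, 76.1 and 90.2 CPM in ShSC, ShA and ShB and was not called (log2 fold change -0.16, SE 0.22).

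**Figure D2:**
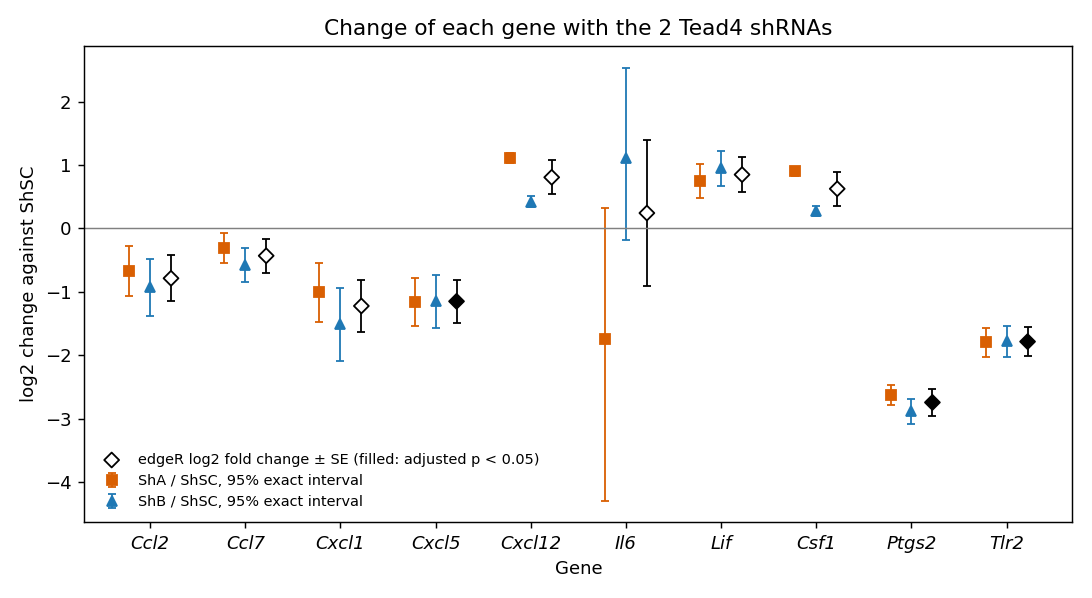
Log2 change of each gene against ShSC: squares ShA and triangles ShB with exact 95% counting intervals, diamonds the edgeR log2 fold change over both libraries with its SE (filled where the adjusted p passed). Ptgs2, Tlr2 and Cxcl5 are filled, all below 0, while Csf1 and Cxcl12 show a larger change in ShA than in ShB.

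The CC chemokines of the group, Ccl2 and Ccl7, stood a little lower in both Tead4 shRNA libraries and neither passed the test. Ccl2 (ENSMUSG00000035385), the main attractant of monocytes, had 124 reads in ShSC, 98 in ShA and 64 in ShB, or 7.72, 4.87 and 4.06 CPM. Its log2 fold change was -0.79 (SE 0.36, edgeR adjusted p = 0.208), with ratios of -0.66 (-1.06 to -0.27) and -0.93 (-1.39 to -0.48). Ccl7 (ENSMUSG00000035373), its neighbour in the same chemokine cluster, had 291, 295 and 192 reads, or 18.1, 14.7 and 12.2 CPM. Its log2 fold change was -0.43 (SE 0.27, edgeR adjusted p = 0.384), and the ShA interval reached almost to no change (-0.54 to -0.07). Neither gene was called with any of the 9 alternatives.

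Of the neutrophil-attracting CXC chemokines of the group, Cxcl5 fell and Cxcl1 was not called. Cxcl5 (ENSMUSG00000029371) had 162 reads in ShSC, 91 in ShA and 72 in ShB, or 10.1, 4.52 and 4.57 CPM. Both Tead4 shRNA libraries were at the same level, 2.23-fold and 2.21-fold below the control library, with log2 ratios of -1.16 (-1.54 to -0.78) and -1.14 (-1.56 to -0.73). The log2 fold change was -1.15 (SE 0.34, edgeR adjusted p = 0.0347). The call ended with upper-quartile scaling (adjusted p = 0.0528) and with DESeq2 (adjusted p = 0.265), and the other 7 alternatives gave 0.0136 to 0.0476.

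Cxcl1 (ENSMUSG00000029380) had 104 reads in ShSC, 65 in ShA and 36 in ShB, or 6.48, 3.23 and 2.28 CPM. The estimate was as large as that of Cxcl5 (log2 fold change -1.22) on fewer reads (SE 0.41, edgeR adjusted p = 0.0662). Its log2 ratios were -1.003 (-1.47 to -0.54) in ShA and -1.50 (-2.09 to -0.94) in ShB. It was called only without the low-count filter (edgeR adjusted p = 0.0252), and with DESeq2 its adjusted p was 0.408. Its RefSeq promoter window (GRCm38.p6, chr5:90890995-90891294, plus strand) is shown for comparison with that of Tlr2.
Cxcl1: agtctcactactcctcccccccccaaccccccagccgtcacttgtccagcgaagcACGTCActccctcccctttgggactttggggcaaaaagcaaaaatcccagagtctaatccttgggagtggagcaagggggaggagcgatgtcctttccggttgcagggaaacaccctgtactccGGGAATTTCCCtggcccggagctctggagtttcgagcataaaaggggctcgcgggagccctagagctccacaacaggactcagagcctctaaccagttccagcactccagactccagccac
The kB consensus stood at -71 and -70 as the overlapping letters GGGAATTTCC and GGAATTTCCC, and the ATF and CREB letters ACGTCA at -195.

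Cxcl12 (ENSMUSG00000061353) went the other way. It had 1942 reads in ShSC, 5254 in ShA and 2546 in ShB, or 121, 261 and 162 CPM. Both Tead4 shRNA libraries were above the control library, ShA by 2.16-fold and ShB by 1.34-fold, and their intervals did not overlap (log2 ratios 1.04 to 1.19 and 0.33 to 0.50). The log2 fold change was 0.81 (SE 0.27, edgeR adjusted p = 0.0640). It was called with 5 of the 9 alternatives, at adjusted p-values from 0.0141 to 0.111 over all of them. Cxcr4, the signalling receptor of Cxcl12, named after its value was seen, also stood higher in both libraries (47.1 CPM in ShSC, 78.2 in ShA, 73.2 in ShB) and was not called (log2 fold change 0.68, SE 0.22, edgeR adjusted p = 0.0574). Cxcr7, which binds and removes Cxcl12 and was named likewise, had 23.8, 17.3 and 18.1 CPM (log2 fold change -0.42, SE 0.24).

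Among other chemokines, 16 of the 31 listed were found in the table and 7 were tested. Of these, 1 rose (5.34% of all tested genes) and 0 fell (4.48%), with a list median of 0.30. Log2 fold changes were positive for 5 and negative for 2. The CC chemokines among them, Ccl8 (0.53), Ccl9 (0.30), Ccl11 (1.18) and Ccl25 (0.25), lay on the positive side, unlike Ccl2 and Ccl7, and were not called. At an unadjusted p under 0.05 edgeR gave 1 and 0 (21.7% of all tested genes in either direction), and DESeq2 and limma-voom gave the same counts. The gene that rose was Cx3cl1, a membrane-bound chemokine, with 329 reads in ShSC, 1280 in ShA and 716 in ShB (log2 fold change 1.41, SE 0.26, edgeR adjusted p = 0.00103). Ccl5, named after its value was seen, had 0 reads in every library, which allows up to 0.149 to 0.190 CPM (3 counts).

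The cytokine Lif (ENSMUSG00000034394), which in muscle is known to stimulate myoblast growth, had 166 reads in ShSC, 349 in ShA and 314 in ShB, or 10.3, 17.3 and 19.9 CPM. Both Tead4 shRNA libraries were above the control library and did not differ beyond counting error (ShB to ShA log2 ratio 0.20, interval -0.02 to 0.42). The log2 fold change was 0.85 (SE 0.28, edgeR adjusted p = 0.0568), just outside the threshold. Lif was called with 2 of the 9 alternatives (total-count scaling, adjusted p = 0.0394, and no low-count filter, adjusted p = 0.0404), and with DESeq2 its adjusted p was 0.267.

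Csf1 (ENSMUSG00000014599), the growth factor of macrophages, had 2461 reads in ShSC, 5762 in ShA and 2934 in ShB, or 153, 286 and 186 CPM. ShA stood 1.87-fold and ShB 1.21-fold above the control library, and neither interval included no change (log2 0.83 to 0.97 and 0.20 to 0.36). The log2 fold change was 0.63 (SE 0.26, edgeR adjusted p = 0.157), and none of the 9 alternatives called it. Its receptor Csf1r, at 0.187 to 0.571 CPM, was too low to be tested.

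Il6 (ENSMUSG00000025746) had 8 reads in ShSC, 3 in ShA and 17 in ShB, or 0.498, 0.149 and 1.08 CPM. The Tead4 shRNA libraries lay on opposite sides of the control library, with log2 ratios of -1.74 (-4.29 to 0.32) and 1.11 (-0.18 to 2.54), and both intervals included no change. The log2 fold change of 0.24 (SE 1.16, edgeR adjusted p = 0.943) changed sign between alternatives (-0.38 to 0.29), so no direction can be given at this depth. It was left out by the filter at a mean of 1 CPM.

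Receptors and transducers of Il6 and Lif changed in both directions. Il6st, the shared chain gp130, fell, with 492 CPM in ShSC against 271 in ShA and 260 in ShB (log2 fold change -0.89, SE 0.23, edgeR adjusted p = 0.0141), a call that held with each of the 9 alternatives. Lifr, the chain that binds Lif, rose, at 42.1 CPM in ShSC, 99.0 in ShA and 61.7 in ShB (log2 fold change 0.93, SE 0.26, edgeR adjusted p = 0.0242), and RLE scaling and DESeq2 ended its call. With Ptger4 and Ptgfr, 3 of 9 tested receptors of the group's products rose (5.34% of all tested genes), while 1 fell (4.48%), with a list median of 0.77. DESeq2 called 0 of these 9 higher and 1 lower.

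Downstream of gp130, edgeR called 2 of 15 tested genes higher (5.34% of all tested genes) and 2 lower (4.48%), with a list median of 0.37. The kinase Jak2 rose by 0.77 (SE 0.24, edgeR adjusted p = 0.0429). The kinase Tyk2 fell by 0.81 (SE 0.22, adjusted p = 0.0181) and Socs2, a feedback inhibitor of cytokine signalling, fell by 0.69 (SE 0.21, adjusted p = 0.0423). DESeq2 ended the calls of Jak2, Tyk2 and Socs2. RLE scaling also ended those of Jak2 and Socs2, upper-quartile and total-count scaling that of Socs2, and the dispersion over all 3 libraries that of Jak2.

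Of 36 other cytokines listed, 25 were in the table and 18 were tested, with 1 lower (4.48% of all tested genes) and 1 higher (5.34%). Il15, a cytokine made in muscle, fell, with 139 reads in ShSC, 54 in ShA and 53 in ShB (log2 fold change -1.52, SE 0.38, edgeR adjusted p = 0.0113; the call ended with DESeq2). The gene called higher, Cntf, had 192 reads in ShA and 0 in both other libraries. It shares exons with Zfp91 on the same strand, so its reads cannot be assigned with certainty, and its call rests on the ShA library alone. RLE and upper-quartile scaling, DESeq2 and limma-voom ended it. Tnf, named after its value was seen, had 0 reads in every library.

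**Figure D3:**
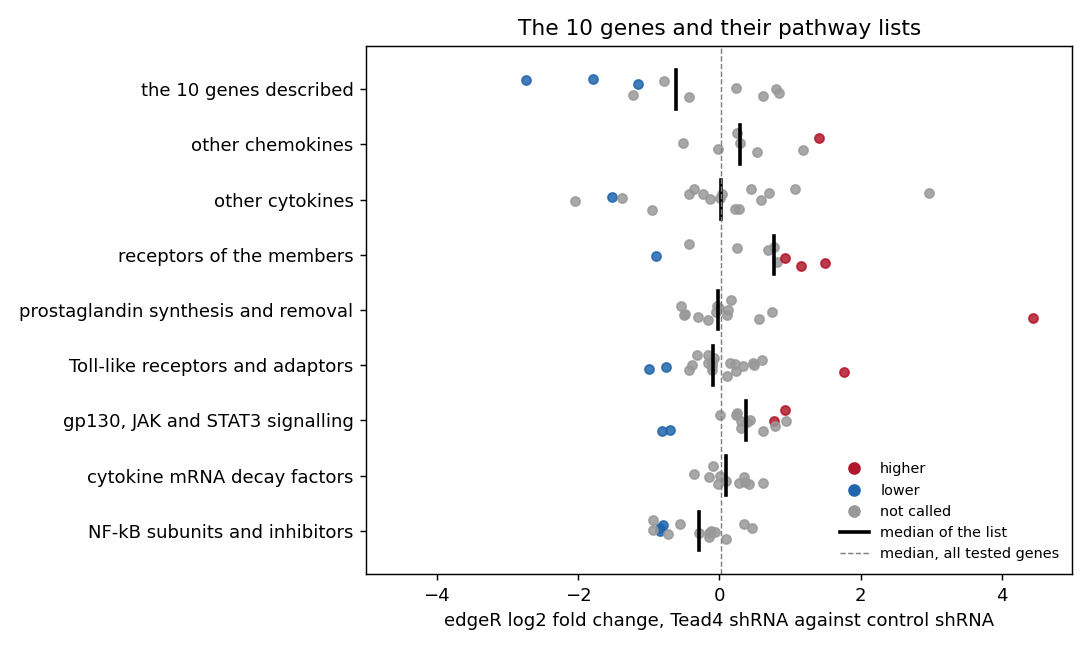
Log2 fold change (edgeR, Tead4 shRNA against control shRNA) of every tested gene in the group and in 8 related lists, with red points called higher, blue points called lower and black bars the list medians and a dashed line the median of all tested genes; Cntf lies outside the axis. The called genes of the group reach down to -2.74, and the lowest called gene of the related lists, Il15, lies at -1.52.

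NF-kB genes, whose products act on many promoters of this group, showed 3 of 15 tested members lower (4.48% of all tested genes) and 0 higher (5.34%), with a median of -0.28 (at an unadjusted p under 0.05, 6 lower and 0 higher, beside 21.7% of all tested genes in either direction; DESeq2 called 1 lower and limma-voom 3 lower). The subunits Nfkb2 (log2 fold change -0.84, SE 0.22, edgeR adjusted p = 0.0143) and Relb (-0.84, SE 0.24, adjusted p = 0.0261) fell, as did the inhibitor Tnfaip3 (-0.79, SE 0.22, adjusted p = 0.0247). The other subunits, Nfkb1 (0.35), Rel (0.46) and Rela (-0.12), were not called. DESeq2 ended the calls of Relb and Tnfaip3. Whether these changes bear on Ptgs2, Tlr2 or Cxcl5 was not tested. RefSeq promoter windows were matched for 7 of the 10 genes. The kB consensus, held by 8.46% of all windows, was found in those of Tlr2, which was called lower, and of Csf1, Cxcl1, Il6 and Lif, which were not called. The windows of Ptgs2 and Cxcl12 held none. The TEAD letters, held by 14.7% of all windows, were in none of the 7. The part of these letters in the changes was not tested.

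The window of Lif (GRCm38.p6, chr11:4257318-4257617, plus strand) is shown as one of a gene with higher levels in both Tead4 shRNA libraries.
Lif: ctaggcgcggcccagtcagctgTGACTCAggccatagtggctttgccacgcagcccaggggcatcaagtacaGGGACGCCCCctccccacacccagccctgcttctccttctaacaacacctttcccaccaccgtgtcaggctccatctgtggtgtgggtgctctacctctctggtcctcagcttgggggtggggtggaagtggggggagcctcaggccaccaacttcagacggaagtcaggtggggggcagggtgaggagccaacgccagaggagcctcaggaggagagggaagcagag
It held the AP-1 letters TGACTCA at -228 and the kB consensus as GGGACGCCCC at -178.

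Transcripts of this group are known for AU-rich elements in the 3′ untranslated region, repeats of ATTTA that bind proteins which speed or slow decay. In GENCODE M21 transcripts (the longest coding transcript of each gene), ATTTA stood 14 times in the 2445 bases of Ptgs2, 7 times in the 592 bases of Cxcl1, 10 times in Il6, 7 times in Lif, 5 times in Cxcl5 and 0 times in the 148 bases of Tlr2. Per kilobase this was 11.8 for Cxcl1 and 5.73 for Ptgs2, above 99.5% and 95.4% of 12198 tested genes with such a region, and 0.771 for Cxcl12, above 37.5% of them. Il6 had 6.0, Ccl7 4.6, Cxcl5 4.5, Ccl2 3.64 and Csf1 1.89, above 95.9%, 92.1%, 91.7%, 86.7% and 62.4% of them. The longer TATTTAT was found in 7 of the 10 genes, beside 30.2% of all. These shares are not matched for length, and the median region of all had 1162 bases. Among the genes with a match, Cxcl1 (592) and Cxcl5 (1111) were shorter than that. Cxcl12 (5188), Lif (3180), Ptgs2 (2445), Csf1 (2111) and Il6 (1668) were longer. The 30 bases with the most ATTTA are shown, with ATTTA in capitals, for the called gene with the most matches (Ptgs2), for the densest (Cxcl1) and for Lif, at 2.2 per kilobase (above 68.3% of tested genes).
Ptgs2: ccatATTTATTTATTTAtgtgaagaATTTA
Cxcl1: gagggtcctATTTATTTAtgtATTTATTTA
Lif: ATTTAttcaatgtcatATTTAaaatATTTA
Ptgs2 stood high on the count of ATTTA per kilobase, and Tlr2 stood at 0 in its 148 bases. ATTTA was found in 69.9% of tested genes with such a region, so Tlr2 shared its place with many genes. The part of these elements in the changes was not tested. Of 11 tested factors that act on such elements, edgeR called 0 (9.82% of all tested genes). At an unadjusted p under 0.05 there was 1 (21.7%), DESeq2 and limma-voom called 0, and the median of these factors was 0.09. The Roquin relative Rc3h2 (-0.08, SE 0.22) and the decay factor Khsrp (0.01, SE 0.22) were the most abundant among them.

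Levels between genes were compared as CPM per kilobase of exon, with GENCODE M21 lengths. In ShSC the order was Csf1 (29.02), Ptgs2 (26.0), Ccl7 (22.6), Cxcl12 (14.8), Tlr2 (12.75), Ccl2 (6.79), Cxcl5 (5.42), Cxcl1 (3.45), Lif (2.38) and Il6 (0.205). Counting intervals of neighbours overlapped for Ptgs2 with Ccl7 and for Ccl2 with Cxcl5. In both Tead4 shRNA libraries Csf1, Cxcl12 and Ccl7 led. Ptgs2 (4.23 CPM per kilobase in ShA and 3.52 in ShB) and Lif (3.99 and 4.58) stood with Ccl2 and Tlr2 at ranks 4 to 7 in both. Neighbours within those ranks had overlapping intervals, and Lif and Ptgs2 were apart beyond counting error in ShB but not in ShA. With 1 library per population the intervals cover counting error only. The orders also depend on the lengths used, which join all annotated exons of a gene, while the annotation behind the counts is not given.

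Beyond counting error, the ShB library was lower than the ShA library for 4 of the 10 genes (25.4% of tested genes) and higher for 1 (25.3% of tested genes). Such differences were common among all tested genes. With 1 library per shRNA, differences between shRNAs, cultures and libraries cannot be told apart. The differences were widest in reads for Cxcl12 and Csf1, with ShB to ShA log2 ratios of -0.69 (-0.76 to -0.62) and -0.62 (-0.69 to -0.56). They were small for Ptgs2 (-0.27, -0.50 to -0.03) and for Ccl7 (-0.27), whose interval ended at -0.0002. Il6 was the gene that stood higher in ShB (2.85, 1.07 to 5.27), on 17 reads against 3. For Tlr2, Cxcl5, Lif, Ccl2 and Cxcl1 the interval included no difference. Tead4 itself was lower in ShB (10.8 CPM) than in ShA (19.7 CPM). Cxcl12 and Csf1 were nearer to the control library in ShB, whereas Ptgs2 and Ccl7 were further from it there.

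**Figure D4:**
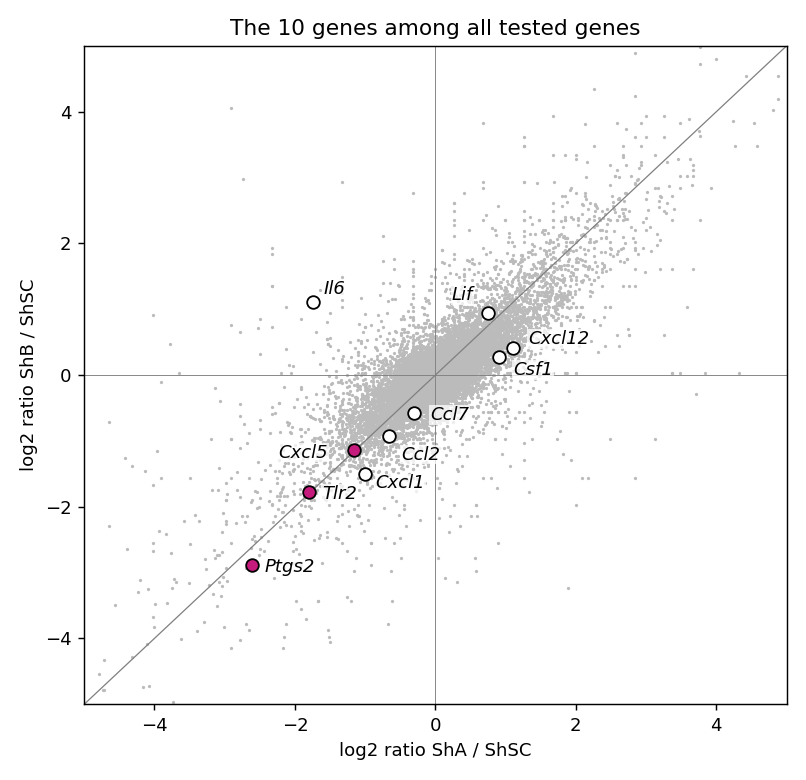
Log2 ratio to ShSC in ShA (x axis) and in ShB (y axis) for 14332 tested genes in grey, with the 10 genes as circles (filled where called) and a line of equal change; 137 genes with 0 reads in a library and 9 beyond the axes are not drawn. Tlr2 and Cxcl5 lie on the line, Ptgs2 near it, Csf1 and Cxcl12 below it, and Il6 in the quadrant of opposite signs. Both axes share the ShSC library.

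Genes whose pair of ratios lay nearest to those of a called gene were sought among 9740 named genes with a mean of at least 5 CPM, by Euclidean distance in log2 units over the 3 libraries. Nearest to Ptgs2 were Hyou1, a chaperone of the endoplasmic reticulum (distance 0.0651), and Bbc3, a promoter of cell death (0.0906), with log2 fold changes of -2.79 (SE 0.23) and -2.80 (SE 0.32). Nearest to Tlr2 were the myosin light chain gene Myl6b (0.0744) and the tryptophan-tRNA synthetase gene Wars (0.0856), at -1.74 (SE 0.21) and -1.84 (SE 0.21). Nearest to Cxcl5 were Hmox1, which codes for a haem-degrading enzyme (0.0148), and Bcat2, an aminotransferase gene (0.0234), at -1.14 (SE 0.21) and -1.15 (SE 0.22). Likeness over 3 libraries describes these libraries only.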

How the data were processed

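RNA of 3 C2C12 populations was sequenced from libraries whose protocol, per the labels, has no step that marks strand, so overlapping genes cannot be separated. The authors' deposited table gave raw read counts per Ensembl gene and, as a score without unit, normalized values that equalled the count times 1 factor per library (1.00, 0.801 and 1.02 for ShSC, ShA and ShB), rounded. Tests used the raw counts. Tools listed in the submitters' processing notes are TopHat (1.0.12), DESeq and Cufflinks (0.8.2), and the build is mm9; their roles are not given. The counting program, the annotation and the treatment of reads shared by related genes, such as Ccl2 and Ccl7, are not given in the sources used here.

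In R 4.3.3, edgeR 4.0.16 tested the genes passing filterByExpr (14478 of 20162) with TMM scaling, a quasi-likelihood test and Benjamini-Hochberg adjustment over all of them. SE was derived from the log2 fold change and its F statistic. The coefficient of variation that edgeR calls biological was 16.4%, a value between the ShA and ShB libraries and not between repeat cultures. Ratios between 2 libraries carry exact Clopper-Pearson 95% intervals, and reads amplified by PCR are not independent molecules, so intervals and floors (3 counts) cover counting error only. Alternatives were 3 scalings, 2 filters, DESeq2 1.42.0, limma-voom (limma 3.58.1) and 2 other edgeR settings. The code was tested on simulated data. Identifiers were matched to GENCODE M21 (18701 of 20162), and promoters to RefSeq.

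The 10 genes and the lists were chosen with earlier results of these data known. The text names all 10 genes, from each list up to 4 called genes with the highest CPM (2 where none was called), and the 2 genes nearest to each called gene. One gene that this rule names is not reported here.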

Additional observations from a re-analysis of the deposited data

How the results depend on the processing

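Ptgs2 and Tlr2 kept their direction and their call in all 9 alternatives, with log2 fold changes from -2.75 to -2.70 and from -1.79 to -1.74. The 3 genes called lower became 2 with upper-quartile scaling and with DESeq2, which both left out Cxcl5, and 4 without a low-count filter, which added Cxcl1. Genes of the group called higher went from 0 to 2 with total-count scaling and without the low-count filter (Cxcl12 and Lif), and to 1 with the filter at a mean of 1 CPM, limma-voom and the newer quasi-likelihood method (Cxcl12). Over all genes, DESeq2 called 447 higher and 371 lower, against 773 and 649. The other alternatives stayed within 1.5 times of those counts, from 626 higher (RLE scaling) and 516 lower (upper-quartile scaling) to 1020 and 779 (no filter). The cause of these changes was not tested. No alternative turned the direction of a called gene, and scaling moved none of the 20 library ratios of the group beyond its counting interval. For named genes outside the group the same alternatives were added after seeing the data, and 24 such values lost their call, as given beside each gene. Leaving out either Tead4 shRNA library leaves no residual degree of freedom, so the ratio of the other library stands as a value with no test. No paired analysis was possible because there was 1 control library and the labels number no replicates. Depth limits Il6, with 3 to 17 reads, and the control value of Hpgd, with 1 read.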
